A study of Homo sapiens with 6 samples.

Results

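The wide NONO regions of control cells were selected on width alone, as the CUT&Tag peaks of the NONO library NC on chromosomes 1 to 22 that spanned 0.538 kb or more, which is 2 times the fixed width of 0.269 kb that 94.5% of this list carried. They numbered 1461 of 87191 NONO NC regions (1.68%) and of 972622 regions in all 6 lists, and the other 85730 NONO NC regions served as the narrower comparison. The cell line was MDA-MB-231, which derives from a triple-negative breast tumour. In CUT&Tag an antibody against a protein or histone mark recruits a transposase, and the fragments it releases nearby are sequenced. NONO was profiled in NC cells (labelled WT) and in NONO-KD cells (NONO knockdown), and the histone marks H3T11ph and H3K27ac were profiled in NC cells and in PKM2-KD cells (PKM2 knockdown), with 1 library per group and no other agent named in the labels. In the study's methods NC stands for negative control siRNA, and siRNAs against NONO and PKM2 and short hairpin lines are both described. Which of them served the CUT&Tag libraries is not given in the sources used here, and peak lists hold no transcript level with which to check it. The other 5 lists held 43292 regions for NONO in NONO-KD, 41692 and 35720 for H3T11ph (NC, then PKM2-KD), and 556239 and 208488 for H3K27ac in the same order. As a check of the line, H3K27ac regions with a −log10 q of 20 or more lay at an end of 16 of 35 mesenchymal and basal genes and of 5 of 22 luminal and epithelial genes in NC. In PKM2-KD the counts were 22 of 35 and 6 of 22. Over all protein-coding genes the shares at this limit were 10.7% in NC and 28.2% in PKM2-KD. H3K27ac regions of any q in NC lay at 33 of 35 and 16 of 22, and at 78.7% of all protein-coding genes.

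NONO is a nuclear protein of the DBHS family that binds both RNA and DNA, takes part in transcription, splicing and DNA repair, and builds paraspeckles, the nuclear bodies that form on the long noncoding RNA NEAT1. H3T11ph is histone H3 phosphorylated at threonine 11, a modification that nuclear PKM2, a pyruvate kinase isoform, can place. H3K27ac is acetylated lysine 27 of the same histone and marks active promoters and enhancers. Ribosomal RNA genes, which recur below, stand in tandem arrays: RNA polymerase I transcribes the 45S precursor, and RNA polymerase III transcribes 5S rRNA and tRNAs.

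Width was the selection rule and is given as description only, together with the other columns of the same list. Widths ran from 0.538 kb to 42126 bp with a median of 632 bp and quartiles of 584 and 700 bp, so that most members were little wider than the limit and a few were very long. Together they covered 1172.4 kb, or 4.76% of the 24.7 Mb under all NONO NC regions. The median fold enrichment, which the peak caller computes as (pileup + 1)/(background + 1) at the summit, was 24.8 (1.44 to 233) against 23.9 for narrower regions. The median −log10 q was 118 against 67.2. The pileup height recovered from fold and p was 106 fragments (6 to 4308) at the median against 56, and the background was 1.25 fragments against 0.899. A background over 2 times the commonest value of 0.899 was found for 41.5% of members and 14.5% of narrower regions. At the limit, the 5 members listed first at 0.538 kb had folds from 18.4 to 88.5, and the 5 regions listed first at 537 bp had folds from 6.16 to 63.

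Sequences at members that the results below return to are shown first. RefSeq (GRCh38.p14) held 1461 microRNA hairpins on chromosomes 1 to 22, by coincidence the same number as the members. Of these hairpins 9 were overlapped by a wide region, and 7 of them lay wholly inside it. The 85730 narrower regions overlapped 40 hairpins. A single member of 1436 bp, chr19:13836157-13837592, held the whole cluster of MIR23A, MIR27A and MIR24-2. The mature sequences are given 5′ to 3′ with the seed (bases 2 to 8) in capitals, because 3 hairpins lay inside this 1 member. All 6 lie on the minus strand.
hsa-miR-23a-3p: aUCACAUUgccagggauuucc
hsa-miR-23a-5p: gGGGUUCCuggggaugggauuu
hsa-miR-27a-3p: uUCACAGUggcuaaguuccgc
hsa-miR-27a-5p: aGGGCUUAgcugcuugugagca
hsa-miR-24-3p: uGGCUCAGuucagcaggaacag
hsa-miR-24-2-5p: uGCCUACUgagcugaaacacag

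MIR3187 lay inside the gene PLPPR3 (member chr19:813511-814283, plus strand) in a region with a fold of 37.5 in NC and 32.4 in NONO-KD, and miR-6724-5p lay in 2 members of the 45S rRNA arrays on chromosome 21, in the copies MIR6724-2 and MIR6724-4. No seed was shared between these loci: the 14 mature sequences of the 9 hairpins carried 12 different seeds, and the repeats came from copies of miR-3180 and miR-6724.
hsa-miR-3187-5p: cCUGGGCAgcguguggcugaagg
hsa-miR-3187-3p: uUGGCCAUggggcugcgcgg
hsa-miR-6724-5p: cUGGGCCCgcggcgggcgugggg

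Promoters were compared as windows of 300 bases (250 before and 50 after an annotated start, RefSeq, GRCh38.p14). Wide NONO regions overlapped 178 of 33725 windows, which belonged to 154 genes. The median G+C content of these 178 was 67% (quartiles 61.3 and 73%), against 65% for the 2379 windows overlapped by narrower NONO regions only and 58.7% for all windows. The hexamer GGGCGG, the core of the GC box, was searched on both strands and occurred in 69.7% of the wide set (95% interval 62.6 to 75.9), in 68.2% of the narrower set (66.3 to 70) and in 45% of all windows. TGACTCA, the AP-1 site, occurred in 3.93%, 3.49% and 4.91%. TATAAA occurred in 2.25% of the wide set (0.877 to 5.63), 5.09% of the narrower set (4.27 to 6.04) and 11.6% of all. The promoters under wide and narrower NONO regions thus had overlapping intervals for all 3 motifs, and both sets were richer in GGGCGG and poorer in TATAAA than promoters at large. A match is a description of letters and not of a bound site.

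The promoters of 5 genes that members cover are printed with GGGCGG or its complement CCGCCC in capitals, each as the 250 bases before a start. RPS15 (a ribosomal protein) and SLC16A3 (the lactate exporter MCT4) lay under members that recurred in NONO-KD. RARA (retinoic acid receptor alpha) and HNRNPL (a splicing regulator) lay under members shared with NONO-KD and both marks. EWSR1, an RNA-binding protein found in paraspeckles, lay under a member without a NONO-KD region and has none of the hexamers here.
RPS15, chr19:1438146-1438395, plus strand: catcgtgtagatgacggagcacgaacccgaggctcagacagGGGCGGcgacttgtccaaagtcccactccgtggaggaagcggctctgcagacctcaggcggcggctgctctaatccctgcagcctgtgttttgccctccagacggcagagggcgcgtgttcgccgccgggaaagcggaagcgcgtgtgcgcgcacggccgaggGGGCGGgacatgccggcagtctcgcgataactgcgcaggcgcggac
SLC16A3, chr17:82228792-82229041, plus strand: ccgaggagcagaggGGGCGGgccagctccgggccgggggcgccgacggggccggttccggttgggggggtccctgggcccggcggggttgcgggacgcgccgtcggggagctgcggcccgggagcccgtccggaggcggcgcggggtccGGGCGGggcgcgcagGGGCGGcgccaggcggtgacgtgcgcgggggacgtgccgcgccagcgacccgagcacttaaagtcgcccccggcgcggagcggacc
RARA, chr17:40317995-40318244, plus strand: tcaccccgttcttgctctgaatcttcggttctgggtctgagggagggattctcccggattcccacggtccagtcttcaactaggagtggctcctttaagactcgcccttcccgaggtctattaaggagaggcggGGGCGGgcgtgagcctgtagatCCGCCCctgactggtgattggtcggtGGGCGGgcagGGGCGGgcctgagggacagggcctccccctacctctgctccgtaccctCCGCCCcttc
HNRNPL, chr19:38849987-38850236, minus strand: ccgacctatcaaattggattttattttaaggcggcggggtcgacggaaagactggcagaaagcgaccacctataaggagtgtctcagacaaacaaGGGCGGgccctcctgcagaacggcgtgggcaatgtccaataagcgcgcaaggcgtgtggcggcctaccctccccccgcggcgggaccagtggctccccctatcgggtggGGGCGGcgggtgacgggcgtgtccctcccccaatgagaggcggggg
EWSR1, chr22:29268018-29268267, plus strand: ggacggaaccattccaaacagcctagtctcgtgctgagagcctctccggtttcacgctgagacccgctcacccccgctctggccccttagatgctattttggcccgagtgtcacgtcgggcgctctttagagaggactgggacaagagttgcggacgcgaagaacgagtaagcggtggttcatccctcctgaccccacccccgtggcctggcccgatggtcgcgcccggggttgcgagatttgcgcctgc

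The first question was whether wide NONO regions of NC cells were still called in NONO-KD cells. A NONO-KD region shared at least 1 base with 293 members, or 20.1% (95% Wilson interval 18.1 to 22.2), and with 1.73% (1.64 to 1.82) of narrower regions; over all NONO NC regions the share was 2.04%. The difference was 18.3 percentage points (Newcombe interval 16.4 to 20.5). A wider region meets other regions more easily, so the 1-base summit was compared as well. A NONO-KD region covered the summit of 137 members, 9.38% (7.99 to 11), against 0.745% of narrower summits and 0.89% of all, a difference of 8.63 points (7.24 to 10.2). The share at the summit, where each NONO NC region counts as 1 base, was thus also higher for members. The NONO-KD regions there were wider as well, with a median of 468 bp at member summits and 145 bp at narrower ones. The Wilson and Newcombe intervals cover counting error only, and with 1 library per group they say nothing about the spread between cultures. The NONO-KD list was called differently from the NC list (it held regions narrower than the fixed width), so that the processing and the knockdown cannot be told apart in any share that was not found again.

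Marks of NC cells were found more often on wide than on narrower NONO regions. H3T11ph overlapped 374 members, 25.6% (23.4 to 27.9), against 2.6% of narrower and 2.98% of all regions, a difference of 23 points (20.8 to 25.3). H3K27ac overlapped 543 members, 37.2% (34.7 to 39.7), against 16.7% and 17%, a difference of 20.5 points (18.1 to 23). At the summit, H3T11ph covered 13.3% of members (11.6 to 15.1), 1.25% of narrower and 1.45% of all regions, and H3K27ac covered 17.3% (15.5 to 19.3), 8.03% and 8.19%. Both marks were more frequent on members, and in proportion the gap was larger for H3T11ph. Few members were covered over most of their length: 50% or more of the bases lay under NONO-KD regions in 5.13%, under H3T11ph in 7.87% and under H3K27ac of NC cells in 12.5%.

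In PKM2-KD cells H3T11ph overlapped 296 members, 20.3% (18.3 to 22.4), against 2.3% of narrower and 2.6% of all regions, and covered 9.31% of member summits against 0.987% and 1.13%. H3K27ac of PKM2-KD cells overlapped 601 members, 41.1% (38.6 to 43.7), against 13.2% and 13.7%, and covered 24.5% of summits against 8.56% and 8.83%. Of the 374 members with H3T11ph in NC, 206 also had it in PKM2-KD (55.1%, 50 to 60), and of 2228 narrower regions with the mark 25.2% (23.5 to 27.1) did. For H3K27ac the corresponding shares were 70.5% (66.6 to 74.2) of 543 members and 42.5% (41.7 to 43.3) of 14284 narrower regions. Counted at the summit, which takes out the width of the NONO region but not that of the mark region, the shares were 43.8% (37 to 50.8) of 194 members and 21.9% (19.5 to 24.5) of narrower regions for H3T11ph, and 74.3% (68.6 to 79.3) of 253 members and 52% (50.8 to 53.2) for H3K27ac. Mark regions of NC cells were wider at member summits than at narrower ones. Their medians were 444 against 205 bp for H3T11ph and 537 against 287 bp for H3K27ac. Both ways of counting gave a higher share for members. The lists of H3K27ac differed in size and in calling, so a gain or loss after PKM2 knockdown cannot be read from these counts.

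**Figure D1:**
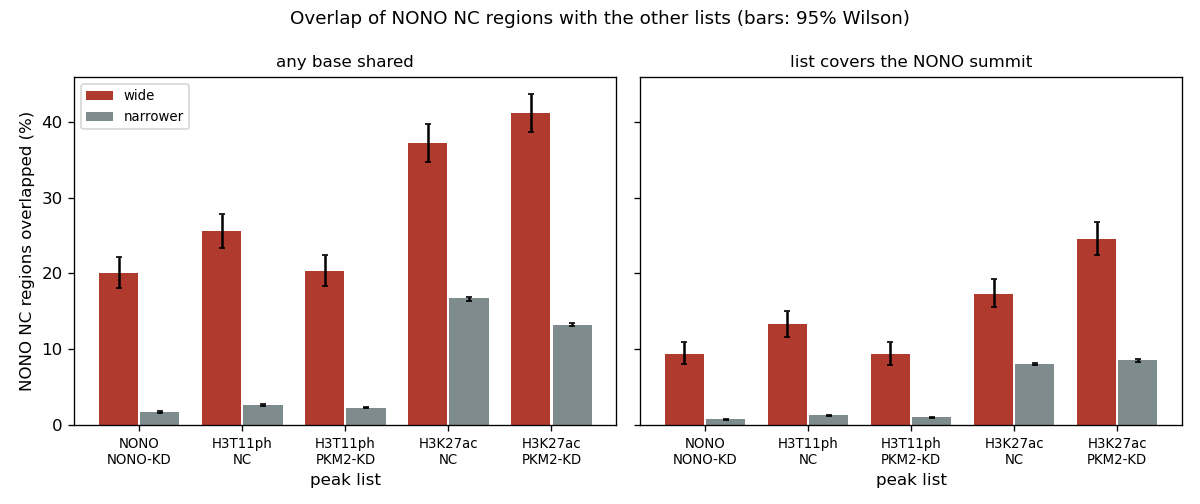
Share of NONO NC regions (%, y axis) overlapped by each of the 5 other peak lists (x axis), for 1461 wide regions (red) and 85730 narrower regions (grey), by any shared base (left) and at the summit (right), with 95% Wilson intervals. Wide regions stand above narrower ones in all 10 pairs, from 9.31% against 0.987% to 41.1% against 13.2%.

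Both marks of NC cells met on 179 members (12.3%, 10.7 to 14), against 1.19% of narrower and 1.38% of all regions. Neither mark was found on 723 members (49.5%, 46.9 to 52), against 81.9% and 81.4%. All 5 other lists overlapped 57 members (3.9%, 3.02 to 5.02), against 0.0956% and 0.159%. No other list overlapped 529 members (36.2%, 33.8 to 38.7), against 74.7% and 74.1%. These 4 shares count any shared base, which favours wide regions. At the summit, both marks met on 4.04% of members (3.14 to 5.17), 0.492% of narrower and 0.552% of all regions, and neither mark on 73.4% (71.1 to 75.6), 91.2% and 90.9%. All 5 lists covered 1.3% of member summits (0.834 to 2.02), 0.0408% of narrower and 0.0619% of all, and no list covered 61.8% (59.3 to 64.3), 86.3% and 85.9%. The order between members and narrower regions was the same by either count.

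Recurrence in NONO-KD was higher on members with H3T11ph than on those without it, and similar with and without H3K27ac. It was 49.2% (41.9 to 56.4) of the 179 members with both marks and 52.3% (45.3 to 59.2) of the 195 with H3T11ph only. It was 9.89% (7.23 to 13.4) of the 364 with H3K27ac only and 9.27% (7.36 to 11.6) of the 723 with neither. At the summit the 4 shares were 25.1%, 34.4%, 1.65% and 2.63%. The classes also differed in fold, with medians of 20.4, 9.03, 32.8 and 31.6, the lowest of them on members with H3T11ph only. Their median widths were 681, 719, 628 and 617 bp. Overlap with NONO-KD and with H3T11ph was more frequent in wider members, as given below, and at high background. Where it was over 2 times the commonest value, NONO-KD met 35.4% and H3T11ph of NC cells 44.5% of 607 members. At lower background they met 9.13% and 12.2% of 854. Recurrence by mark was not taken within these bands, within classes of width or without the arrays described below. Whether background, width or array copies account for it was therefore not tested.

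**Figure D2:**
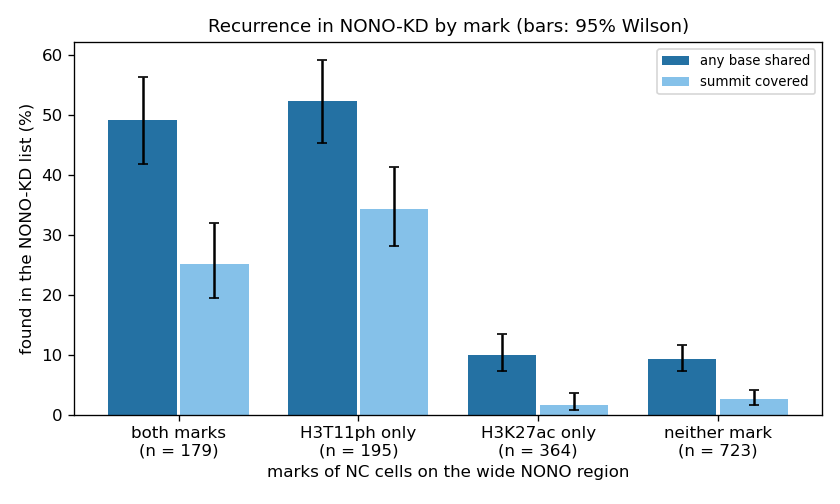
Share of wide NONO NC regions found in the NONO-KD list (%, y axis) by the marks that overlapped them in NC cells (x axis), by any shared base (dark) and at the summit (light), with 95% Wilson intervals. The 2 classes with H3T11ph reach 49.2% and 52.3%, and the 2 without it stay at 9.89% and 9.27%.

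Within the members, overlap at the summit was higher in wider classes for NONO-KD and H3T11ph, and the intervals of the classes overlapped for H3K27ac. Of 1218 members up to 806 bp wide, a NONO-KD region covered 4.93% of summits (3.85 to 6.29). The share was 19.8% (14.4 to 26.6) of 162 members from 807 to 1344 bp and 55.6% (44.7 to 65.9) of 81 members of 1345 bp and over. For H3T11ph of NC cells the summit shares were 9.11%, 26.5% and 49.4%. For H3K27ac of NC cells they were 16.6%, 21% and 21%, with overlapping intervals. The median background rose over the same classes from 1.04 to 2.61 and 18.9 fragments, and the median fold was 27.4, 18.7 and 13.9. The widest class was mostly array members. Without the arrays described below, a choice made after the values were seen, the classes held 1202, 149 and 23 members. Their NONO-KD summit shares were then 4.74%, 20.8% and 39.1% (22.2 to 59.2 for the last), those of H3T11ph 8.99%, 27.5% and 60.9%, and those of H3K27ac 16.6%, 20.8% and 8.7%. Width selected the members, so these classes describe them and test nothing.

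**Figure D3:**
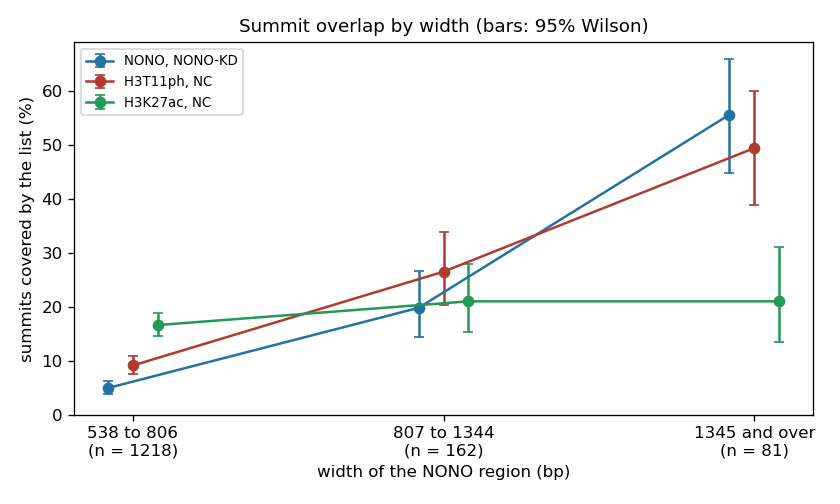
Share of member summits covered by 3 lists (%, y axis) in 3 classes of width (bp, x axis), with 95% Wilson intervals. NONO-KD goes from 4.93% to 55.6% and H3T11ph of NC cells from 9.11% to 49.4%, while H3K27ac of NC cells lies between 16.6% and 21%.

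Shares were also taken within bands of background, a split chosen after the values were seen. Where it was at most 2 times the commonest value, NONO-KD covered 3.75% (2.67 to 5.24) of 854 member summits and 0.469% of narrower summits. Where it was higher, the shares were 17.3% (14.5 to 20.5) of 607 members and 2.37%. H3T11ph of NC cells covered 5.04% against 0.676% in the lower band and 24.9% against 4.65% in the upper one. H3K27ac of NC cells covered 14.1% against 7.12% and 21.9% against 13.4%. The summit share was thus higher for members than for narrower regions in both bands and each of the 3 lists. Within 4 bands of −log10 q and over all 5 lists, the summit share of members exceeded that of narrower regions in 20 of 20 comparisons, by 2.28 to 17 points. The smallest difference was for H3K27ac of NC cells at −log10 q under 20, where the interval for members (9.32%, 6.24 to 13.7) held the share of narrower regions (7.04%).

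The longest members lay in arrays. Members less than 10 kb apart formed 1264 runs, of which 7 held 5 or more members and 86 members in all. With the member of 42126 bp they made 87 members and 20.3% of the summed member width. The widest member, chr19:36267837-36309962, spanned the long noncoding gene CYKILR with a fold of 21, a pileup of 886 and a background of 41.3 fragments. It was met by 25 NONO-KD regions, by 36 and 27 H3T11ph regions of NC and PKM2-KD, and by 8 and 4 H3K27ac regions. All 10 of the widest members met a NONO-KD region by any shared base, where 20.1% of all members did. They were picked for width, which favours this count, so it describes them and tests nothing.

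The other 9 of the widest members lay in the 5S and 45S ribosomal RNA arrays, 7 of them at rRNA genes. Of 49 rRNA genes in the RefSeq table, 30 had a member within 1 kb of an end (61.2%). The 20 members there were 1.37% of the wide class (0.888 to 2.11), against 5 narrower regions and 0.0287% of all. The 5S array on chromosome 1 (chr1:228608238-228646840) held 8 members with folds from 10.1 to 16.6 over backgrounds of 12 to 28.4 fragments. By any shared base, all 8 met NONO-KD and H3T11ph NC regions, 6 met H3T11ph of PKM2-KD, and 3 and 7 met H3K27ac of NC and PKM2-KD. Fewer summits were covered: 6 by NONO-KD, 2 and 0 by H3T11ph (NC and PKM2-KD), and 0 and 3 by H3K27ac. A further member near the start of chromosome 1 (chr1:180519-181163) had a fold of 15 and met all 5 other lists.

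The 45S units of chromosome 21 had far higher pileups and backgrounds. Their 11 members within 1 kb of a gene end had folds of 2.53 to 8.03, with pileups of 1559 to 4308 fragments over backgrounds of 263 to 745. NONO-KD regions met 9 of the 11, H3T11ph regions met 6 in NC and 3 in PKM2-KD, and H3K27ac met 0 of 11 in both libraries. RNA45SN2, RNA45SN3 and RNA45SN1 held 3, 5 and 4 members in spans of 13.3, 13.3 and 13.4 kb, and RNA45SN4 on chromosome 22 had no NONO NC region. The units are near-identical copies, so reads cannot be placed with certainty among them, and the 2 long runs around them (15 members in chr21:8204810-8261149 and 29 in chr21:8387942-8471853) count copies of the same sequence. In these runs 13 of 15 and 23 of 29 members met NONO-KD, and 10 and 25 met H3T11ph of NC cells. At the summit the counts were 6 and 15 for NONO-KD and 6 and 12 for H3T11ph.

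**Figure D4:**
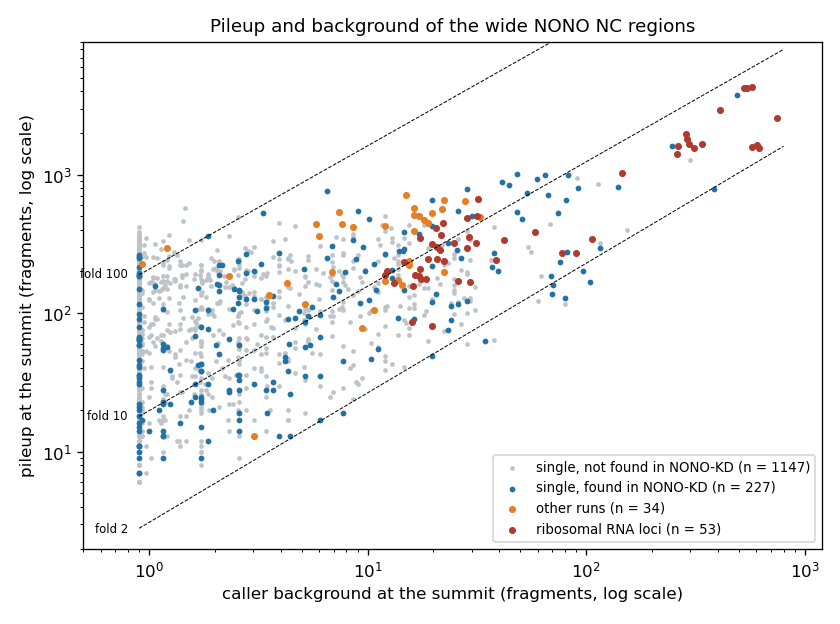
Pileup against caller background at the summit (fragments, both axes logarithmic) for the 1461 wide regions, coloured by the run they belong to and by recurrence in NONO-KD, with dashed lines of equal fold. The 53 members at ribosomal RNA loci reach backgrounds of 745 fragments, and the 1147 single members not found in NONO-KD have a median background of 0.926 and a median fold of 30.1 against 3.01 and 14.3 for the 227 found.

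Other runs lay outside the ribosomal RNA genes. A run on chromosome 19 (chr19:37268486-37303639) at the noncoding gene LOC284412 had 14 members, of which 13 met NONO-KD, 11 H3T11ph and 14 H3K27ac of NC cells. At the summit the counts were 11, 10 and 14. The promoter window of LOC284412 shares long near-identical stretches with those of CYKILR in the widest member. Reads may therefore be split among these copies, and the counts of this run and of the widest member may not be separate. A run of 10 on chromosome 16 (chr16:62570196-62592551) touched no gene, and 3 of its members met NONO-KD, 5 H3T11ph and 0 H3K27ac of NC cells. None of its summits was covered by these lists. The run at MIR23AHG, the host gene of the microRNA cluster printed above, and ZSWIM4 had 5 members with folds from 9.1 to 64.5. All 5 met H3K27ac in NC and in PKM2-KD, 3 met NONO-KD and 1 met H3T11ph. H3K27ac covered 3 of these summits in NC and 4 in PKM2-KD, and NONO-KD and H3T11ph covered none. The member that held MIR23A, MIR27A and MIR24-2 had a fold of 31.4 in NC, NONO-KD regions of up to 57.9, and H3K27ac folds of 19.9 and 22.1.

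The last run, chr19:1436248-1456211, joined the gene ends of DAZAP1, RPS15 and APC2. Its 5 members had folds from 3.49 to 118, and 2 met NONO-KD, 3 H3T11ph and 1 H3K27ac of NC cells. At the summit the counts were 1, 0 and 1. Without the runs and the 42126 bp array, a choice made after the values were seen, 16.5% of 1374 members met NONO-KD, 22.6% H3T11ph and 37.3% H3K27ac of NC cells. Of the 293 recurring members, 227 thus lay outside the arrays.

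Other short noncoding RNA genes were also touched. Small nuclear RNA genes had 9 members within 1 kb (0.616%, against 0.0688% of narrower and 0.078% of all regions). Of these 7 were SNAR genes on chromosome 19, 1 was RNVU1-15, a variant of U1, and 1 was RNU6ATAC of the minor spliceosome. Their folds ran from 3.24 to 14.6, and 3 met NONO-KD. Since SNAR genes are close copies, their regions share sequence too.

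The U3 small nucleolar RNA, which guides early cleavage of pre-rRNA, gave the most widely shared snoRNA regions. SNORD3A and SNORD3C lay in a member of 2161 bp with a fold of 123 in NC, 17.7 in NONO-KD, 18.9 and 8.17 for H3T11ph, and 2.72 and 2.44 for H3K27ac (NC and PKM2-KD). SNORD3B-1 and SNORD3B-2 shared a member of fold 20.5, with 9.86 in NONO-KD and 9.16 and 8.95 for H3T11ph. SNORD3D had 26.9, 6.69, 6.2 and 2.25 in the same 4 lists. All 3 U3 members thus recurred in NONO-KD and carried H3T11ph in both libraries, although the gene copies are near-identical and their reads may be split among them. Over all snoRNA genes the class was not clearly set apart: 4 members (0.274%) against 0.112% of narrower and 0.115% of all regions, with an interval of the difference from -0.00728 to 0.59 points.

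Transfer RNA genes had 8 members (0.548%, against 0.129% and 0.136%), of which 7 met H3T11ph in NC and 7 in PKM2-KD, 4 met NONO-KD and 2 met H3K27ac in NC. At TRD-GTC2-10 and TRA-TGC4-1 the fold was 25 in NC and 76.6 in NONO-KD, with 15.8 and 18.6 for H3T11ph. At TRL-CAG2-1 and TRL-CAG2-2 it was 18.5 in NC and 14.1 in NONO-KD, with 10.5 and 17 for H3T11ph. These are folds of single regions in lists scaled and called apart, and their sizes cannot be compared as levels. MicroRNA genes had 21 members within 1 kb (1.44%, against 0.336% and 0.354%), long noncoding RNA genes 102 (6.98%, against 4.1% and 4.14%) and pseudogenes 49 (3.35%, against 2.07% and 2.1%).

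Protein-coding genes were touched by many members that stood alone. An end of a protein-coding gene lay within 1 kb of 205 members (14%, 12.3 to 15.9), against 6.59% of narrower and 6.72% of all regions, a difference of 7.44 points (5.74 to 9.32). Among them 117 lay at the start only, 39 at the far end only and 9 at both, and strand was not known for 40. Of members on 1 side only, 75% (67.7 to 81.1) were at the start, against 62.5% (61.1 to 64) of 4321 such narrower regions. At low background, at most 2 times the commonest value, gene ends took 9.13% (7.38 to 11.3) of 854 members and 4.94% (4.79 to 5.1) of narrower regions, and at higher background 20.9% (17.9 to 24.3) and 16.4% (15.7 to 17). The share was thus higher for members in both bands, and higher for both kinds of region where the background was high. At least 1 base of a protein-coding gene span was shared by 54.6% of members (52.1 to 57.2), against 49.9% and 50%. This count and that at gene ends favour wide regions, and neither was taken at the summit. By mark, 19% of members with both marks, 14.4% with H3T11ph only, 20.1% with H3K27ac only and 9.68% with neither lay at a gene end.

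Seen from the genes, 237 of 19122 protein-coding genes (1.24%) had a wide region at an end. A NONO-KD region lay at an end of 25.3% of them (20.2 to 31.2), against 14.4% (13.4 to 15.3) of the 5285 genes with narrower NONO regions only and 10.3% of all. H3T11ph of NC cells lay at 42.6% (36.5 to 49), against 25.9% (24.7 to 27.1) and 18.2%. H3K27ac of NC cells lay at 82.7% (77.4 to 87), against 84% (83 to 85) and 78.7%, so that the intervals of the first pair overlapped. H3K27ac of PKM2-KD cells lay at 87.8% (83 to 91.3), against 75.9% (74.7 to 77) and 65.6%.

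The 10 members of highest fold had folds from 183 to 233. Among them 0 met NONO-KD, 1 met H3T11ph and 4 met H3K27ac of NC cells, where the shares over all members were 20.1%, 25.6% and 37.2%. Counts out of 10 are too small to set apart from these shares. P2RY6, a receptor for UDP, held the first (fold 233), GSE1 the next (221), and then RARA (202, inside the gene and apart from the promoter member). TCF3, a basic helix-loop-helix factor, had a fold of 194 at 164 bp from its end, with an H3T11ph region of 29.9 and H3K27ac regions of 10.5 in NC and 23.9 in PKM2-KD. Others lay in or near DOT1L (194), the histone H3 lysine 79 methyltransferase, GIPR (190), the receptor of gastric inhibitory polypeptide, and KCTD5 (185), and at 2 sites of chromosomes 8 and 20 outside genes (189 and 183). Of these 10, 8 had the commonest background of 0.899, and over all members of low background 9.13% met NONO-KD.

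Among recurring members the highest fold in NC was at CDH4, which encodes R-cadherin, with 139 in NC and 46.9 in NONO-KD. A site of chromosome 3 outside genes had 134 and 5.48, NADSYN1 (an NAD synthetase) 133 and 46.2, and LOC105375303 126 and 93.6. SNORD3A and SNORD3C came next, as given above. TRBV13, a T cell receptor segment, had 113 and 71.2, and AGRN, the matrix proteoglycan agrin, had 104 and 9.39. ZNF565 had 102 and 15.6, AHRR, the aryl hydrocarbon receptor repressor, 99 and 3.67, and NOTCH2NLA 97.4 and 22.7. In all 10 the deposited fold was lower in NONO-KD, but they were picked for a high fold in NC and the lists were not scaled alike. Of these 10, only SNORD3A and SNORD3C met H3T11ph in NC.

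A NONO-KD region and both marks of NC cells met on 88 members. After SNORD3A and SNORD3C, the highest folds among them were at CDH4 (97.4, a second member), RARA (73, the promoter printed above), FAM120B (70.7), BAIAP2 (61.3), which encodes an adaptor of actin-rich protrusions, and FOXP4 (54.9), a forkhead factor. At RARA the overlapping folds were 9.12 in NONO-KD, 11.9 for H3T11ph and 10.6 for H3K27ac in NC. At FOXP4 they were 13.5, 42.6 and 7. FOXP4 kept H3T11ph (32.8) and H3K27ac (14.9) regions in PKM2-KD, and RARA had H3K27ac (4.79) but no H3T11ph region there. SLC16A3 (51.6), DOT1L (47), RNA5SP19 (36.6), GPD2 with 2 tRNA genes (35.8) and TRAM2 (35.6) followed, with 4 sites outside genes from 32.9 to 41.6. These 15 sites were picked for their fold in NC, and the order is a description.

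By gene span, CDH4 held 10 members among 167 NONO NC regions in 688 kb, of which 2 met NONO-KD, 2 H3T11ph and 7 H3K27ac of NC cells. MACROD1, an ADP-ribose hydrolase, held 7 in 168 kb, with none in NONO-KD. ABR, GSE1 and RASA3 held 6 each, with 3, 0 and 3 in NONO-KD. These are long genes: CDH4 had 1.45 and MACROD1 4.18 members per 100 kb, against 0.066 over all protein-coding gene spans. With at least 2 members at their ends stood DRD4 (3), and CDHR5, CHID1, ENTPD8, FOSL1, MACROD1, PANO1, SEC16A and TSPAN4 (2 each).

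Of the gene lists, paraspeckle components had a member at an end in 3 of 19 genes, namely NEAT1, DAZAP1 and EWSR1. The share was 1.24% over all protein-coding genes and 0.579% over long noncoding RNA genes, the kind to which NEAT1 belongs. The list was chosen with earlier results of these data known, and whether a count of 3 sets it apart was not tested. NEAT1 held 4 members in 22.7 kb, or 17.6 per 100 kb. Their folds were 4.59, 36.9, 22.1 and 14.3. Only the last, near MIR612, met a NONO-KD region (36.5), and none met H3T11ph of NC cells. H3K27ac regions met 1 of the 4 in NC and 4 of 4 in PKM2-KD, the latter with folds of 4.52, 4.88, 7.05 and 17.4. MALAT1, a neighbouring nuclear long noncoding RNA, held 2 NONO NC regions and none was wide. DAZAP1, an RNA-binding protein, had members of fold 12.2, 17.9 and 56.1 without a NONO-KD region. The last of them lay 564 bp from the gene, in the run that also joins RPS15 and APC2. The EWSR1 member (29.5) also overlapped the neighbouring gene RHBDD3. It met H3K27ac in NC (15) and PKM2-KD (9.72) and H3T11ph in PKM2-KD only (20.7).

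Ribosomal protein genes had a member at an end in 2 of 74, where the share over all protein-coding genes was 1.24%. At RPS15 the fold was 51.4 in NC, 11.8 in NONO-KD and 5.65 for H3T11ph in NC, with no H3K27ac region. The member within 1 kb of an end of RPL35A overlapped the neighbouring gene DRC9 and not RPL35A itself. Its fold was 75.3 in NC with no NONO-KD region, 15 and 27.2 for H3T11ph, and 8.83 and 19.9 for H3K27ac (NC and PKM2-KD). Among glycolysis genes 1 of 21 had one: SLC16A3, whose 3 members (51.6, 17.7 and 32) all met NONO-KD, with folds of 32.1, 20.5 and 27.6. The 3 met H3K27ac in PKM2-KD at 5.17, 10.7 and 4.65, and only the first met it in NC (3.98). PFKL, a phosphofructokinase, and PFKFB3, which makes an activator of that enzyme, held 1 member each in their spans (61.4 and 30.5), neither with a NONO-KD region.

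Immediate early genes had a member at an end in 1 of 31, FOSL1, which encodes the AP-1 subunit FRA1. A member of 1934 bp overlapped CCDC85B, most of its promoter window included, and also ran into the span of FOSL1. It had a fold of 20.5 over a background of 25.8, with 7.28 in NONO-KD and 7.84 and 6.56 for H3T11ph. No NONO-KD region lay in the span of FOSL1 itself. The second FOSL1 member had 44.5 in NC, no NONO-KD region, 4.86 for H3T11ph in NC only, and 15.3 and 54.2 for H3K27ac. Core histone genes (0 of 63), luminal and epithelial genes (0 of 22), mesenchymal and basal genes (0 of 35), cell cycle genes (0 of 23) and splicing factors (0 of 29) had none at an outer end of the annotated span. Starts inside a span are not counted there, and 2 splicing factors, HNRNPF and HNRNPL, had a member over the promoter of such an inner start. Only 1.24% of all protein-coding genes had a member at an end. Lists of this size can then hold none, so the counts of 0 set no list apart. Within spans, AXL, a receptor kinase of mesenchymal-type cells, held 2 (17.9 and 125), SMARCA4 1 (26.6), HNRNPF 1 (83.2) and HNRNPL 1 (3.59). The HNRNPL member met all 5 other lists, with 4.78 in NONO-KD and 4.11 and 26.9 for H3T11ph.

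Among genes the study followed as targets, none of ADAMTSL4, CCN2, CDKN1A, FERMT2, IL11, KAT5, MATN2, MCAM, RCN1 and VDAC1 had a wide region at an end or in its span. The widest NONO NC regions within 1 kb of them were 494 bp at CCN2, 472 bp at MATN2, 376 bp at KAT5 and 318 bp at CDKN1A. ADAMTSL4, FERMT2, MCAM and VDAC1 had regions of 0.269 kb only, and IL11 and RCN1 had none. The nearest member was 101 kb from IL11 and 116 kb from KAT5. Over all protein-coding genes 1.24% had a member at an end, so a list this short can hold none.

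Wide regions were unevenly spread over the genome. They were 5.89% (4.7 to 7.36) of NONO NC regions on chromosome 21, where 44 of 72 lay in the runs described, and 3.88% (3.36 to 4.48) on chromosome 19, where 25 of 179 did (the 42126 bp array included for these counts). Chromosome 17 followed with 2.65% (2.23 to 3.14) without any run of 5, and the lowest share was 0.897% (0.639 to 1.26) on chromosome 12. Within 5 Mb of a chromosome end lay 548 members, 37.5% (35.1 to 40), against 13.6% of narrower and 14% of all regions, a difference of 23.9 points (21.5 to 26.5).

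**Figure D5:**
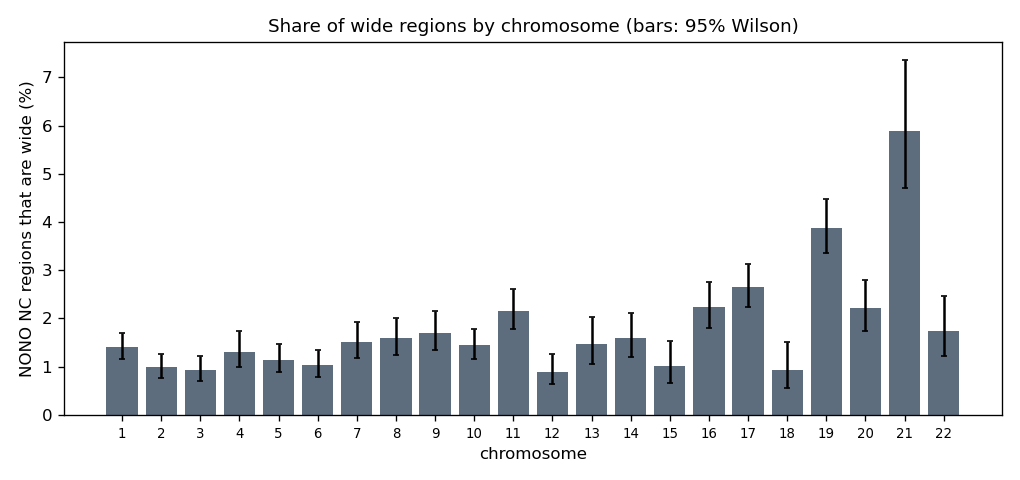
Share of NONO NC regions that are wide (%, y axis) on chromosomes 1 to 22 (x axis), with 95% Wilson intervals. Chromosomes 21 (5.89%) and 19 (3.88%) stand above the others, which lie between 0.897% and 2.65%.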

How the data were processed

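The 6 CUT&Tag peak lists of MDA-MB-231 cells were analysed, 1 library per group, as grouped by the labels. Per the submitters' processing notes, the tools named were FastQC 0.11.9, cutadapt 1.18, SAMtools 1.3.1, MACS2 2.1.1.20160309 and DESeq2 (no use of it is seen in these lists), and the build was hg38. The authors deposited, per region, a score, the fold enrichment (a ratio), −log10 p and −log10 q, and the summit. Total fragments are not given in these lists, so depth is unknown. Pileup and background were solved from fold and p (pseudocount 1.0, whole pileups within 0.02 for all 1461 members). Members, lists and motifs were chosen with earlier results of these data known. Overlap meant 1 shared base, or the NONO summit. Shares carry 95% Wilson intervals and differences Newcombe intervals (Python 3.11.15, numpy 2.4.6, pandas 2.3.3, scipy 1.17.1). The overlap counts and the recovery of pileups were checked on simulated data, and the Newcombe interval was run on a textbook example. No p-value was computed, since no group has a replicate. Genes, promoters and microRNAs came from RefSeq GRCh38.p14, matched by position to the hg38 lists, and a gene end is either end of the annotated span. The named genes were the 10 widest members, the 10 of highest fold, the 10 recurring ones of highest fold, 15 shared with NONO-KD and both marks, genes with several members, list genes with a member at an end and the study's targets. Other genes (short RNA genes, and list genes with a member in the span only) were named after their values were seen. Alternatives were a wider limit, q minimums, 50% coverage, gene windows and runs counted once. Some genes that these rules name are not reported here. Chromosomes X and Y and unplaced sequences were left out.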

Additional observations from a re-analysis of the deposited data

Results flagged for a closer look

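Chromosome X was outside the chromosomes from which wide regions were taken and was not used in any comparison. It is listed here because it held wide regions too. It held 21 NONO NC regions of 0.538 kb or more among 2283 (0.92%, 95% Wilson interval 0.602 to 1.4), where the share on chromosomes 1 to 22 was 1.68%. Of these 21, 4 met a NONO-KD region, 6 an H3T11ph NC region and 6 an H3K27ac NC region.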

How the results depend on the processing

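Shares are given in the order NONO-KD, H3T11ph NC, H3K27ac NC, both marks, neither mark, with the share at protein-coding gene ends last where it applies. With a width of at least 3 times the fixed 0.269 kb, 243 regions remained, with 57.6, 59.3, 41.6, 27.2, 26.3 and 11.1%. With at least 50% of the wide region covered, the shares were 5.13, 7.87, 12.5, 1.3 and 80.9%. At the summit they were 9.38, 13.3, 17.3, 4.04 and 73.4%. With other-list regions of −log10 q of at least 5, H3T11ph was 22.4%, H3K27ac 22.7%, both 8.28% and neither 63.2%. Gene windows of 2.5 and 5 kb gave 20.7 and 30.7%. With runs counted once, NONO-KD was 16.5%, H3T11ph 22.2% and neither mark 52.1%. With alternatives chosen after seeing the data, NONO-KD was 16.5% and H3T11ph 22.6% without runs of 5 or more and the widest array, and 854 members of low background had 9.13, 12.2, 34.7, 6.67, 59.8 and 9.13%. Members with −log10 q of at least 5 gave values within the counting interval throughout. The cause of these shifts was not tested beyond what each alternative's construction fixes (fewer members, a stricter overlap, a wider window). Depth is unknown and there is 1 library per group, so that no share has an error between cultures. No paired analysis was possible because the columns carry no replicate numbers.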
